A study of Mus musculus with 8 samples.

Results

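MicroRNA genes were followed in the spleen through the array probe sets named for them, which sample the primary and precursor transcripts. Members were all probe sets assigned to a single symbol that starts with Mir and a digit, or with Mirlet7, and that had a mean log2 intensity above 5 over all 8 arrays. Host genes, whose symbols end in hg, were left out. The rule kept 119 of 35556 probe sets, which carry 117 microRNA symbols, since Mir713 has 3 probe sets. The table held 298 single-symbol microRNA probe sets, so 179 lay at or below the level limit, and 61 more probe sets that name a microRNA together with another gene were not members. Members were chosen by their mean level over all mice, and 6 of the 8 mice carry Sle1.3. The choice was therefore not free of the genotypes: 15 members had a WT mean at or below 5, against 2 with such a Sle1.3/E2-2het mean and 2 with such a Sle1.3 mean.

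RNA came from digested spleens of 3 Sle1.3/E2-2het mice, 3 Sle1.3 mice and 2 wild-type (WT) mice, with 1 Affymetrix Mouse Gene 1.0 ST array per mouse. All mice were on the C57/B6 background, and no age was given. Sle1.3 mice are labelled as lupus mice, with no alleles listed, and the Sle1.3/E2-2het mice are in addition haplodeficient for E2-2. Plasmacytoid dendritic cells need E2-2, the product of the gene Tcf4. Tcf4 read 8.18, 8.13 and 9.25 in Sle1.3/E2-2het mice, 8.67, 8.63 and 9.06 in Sle1.3 mice and 9.02 and 8.80 in WT mice (log2 intensity here and throughout). Relative to Sle1.3 mice it differed by -0.27 in the Sle1.3/E2-2het mice (SE 0.15, limma adjusted p = 0.582), so the targeted gene was not called lower there, and relative to WT by -0.64 (SE 0.18, limma adjusted p = 0.0182).

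Replicate 3 of both Sle1.3 genotypes came from arrays with another intensity range. Their lowest linear intensities were 11.2 and 10.9, against 4.57 to 5.11 on the other 6 arrays, and they are called the second array set, which holds no WT mouse. The second set read higher by a median of 0.34 over the members and 0.28 over all tested probe sets. The difference was positive in 103 of 119 members (86.6%), beside 82.8% of all tested probe sets. Array set was a term in every fit unless another setting is named. Xist, the X-inactivation RNA of females, read 10.77, 10.68 and 11.90 in the 3 Sle1.3 mice, against 4.11 and 3.75 in the WT mice, and Sle1.3 replicate 3 carries a male label. In the Sle1.3/E2-2het mice Xist read 3.79, 4.29 and 11.82, as labelled. Genotype and sex can therefore not be told apart between Sle1.3 and WT mice. In the first array set the Sle1.3/E2-2het and WT mice are all labelled male and all had low Xist. P-values measure the spread between these few mice.

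A microRNA gene is transcribed as a long primary RNA, which Drosha and Dgcr8 cut in the nucleus to a hairpin. Xpo5 exports the hairpin, Dicer1 cuts it to a short duplex, and 1 strand enters an Argonaute protein, where its seed (bases 2 to 8) selects target mRNAs. Several microRNAs shape blood cells: miR-142 is made across the blood lineages, the miR-17-92 cluster acts in proliferating lymphocytes, miR-155 is induced on immune activation, and the miR-23a cluster is known from myeloid cells. The mature microRNAs themselves were not measured separately. In whole spleen a lower value can come from fewer cells of a type or from less RNA per cell, and these cannot be told apart.

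Mature sequences of the microRNAs with the lowest readings in Sle1.3 mice relative to WT are shown first, from RefSeq on GRCm38.p6, 5′ to 3′, with the seed in capitals. Mir142 gives miR-142a, Mir18 gives miR-18a, and Mir23a, Mir27a and Mir24-2 form the miR-23a cluster.
miR-142a-5p: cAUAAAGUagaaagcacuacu
miR-142a-3p: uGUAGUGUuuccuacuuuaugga
miR-18a-5p: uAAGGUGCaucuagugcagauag
miR-23a-3p: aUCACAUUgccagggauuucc
miR-27a-3p: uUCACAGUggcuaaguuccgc
miR-24-3p: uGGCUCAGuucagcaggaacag
miR-30e-5p: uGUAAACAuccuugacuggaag
miR-155-5p: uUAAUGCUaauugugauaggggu

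The next set is a selection of microRNAs whose probe sets were called higher than in WT. It also holds the miR-7 and let-7 sequences that share a seed. All have their seed in capitals.
miR-680: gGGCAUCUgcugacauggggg
miR-713: uGCACUGAaggcacacagc
miR-7b-5p: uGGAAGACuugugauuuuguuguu
miR-7a-5p: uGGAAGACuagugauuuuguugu
let-7d-5p: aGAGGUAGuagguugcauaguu
let-7e-5p: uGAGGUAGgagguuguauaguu
let-7i-5p: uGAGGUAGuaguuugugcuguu
miR-181c-5p: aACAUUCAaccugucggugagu

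The hairpins of Mir142 and of the 3 Mir680 genes follow, with the mature stretches in capitals, because Mir142 had the largest fall and Mir680-1 and Mir680-2 the largest rises, and Mir680-3 shares their mature sequence.
Mir142: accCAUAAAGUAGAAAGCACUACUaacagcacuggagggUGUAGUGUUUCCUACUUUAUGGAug
Mir680-1: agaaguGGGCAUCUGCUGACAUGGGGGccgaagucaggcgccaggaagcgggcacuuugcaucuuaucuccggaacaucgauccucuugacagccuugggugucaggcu
Mir680-2: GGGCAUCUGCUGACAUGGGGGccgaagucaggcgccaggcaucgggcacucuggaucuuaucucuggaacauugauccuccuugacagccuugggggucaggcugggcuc
Mir680-3: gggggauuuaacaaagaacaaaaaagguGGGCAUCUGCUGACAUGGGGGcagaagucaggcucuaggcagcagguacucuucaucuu

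Members spanned mean log2 intensities of 5.01 to 9.68. Of the 119, 51 lay between 5 and 6, 39 between 6 and 7, 19 between 7 and 8, and 10 above 8. The median was 6.17 over members and 6.64 over the other 16222 tested probe sets. Just above the limit were Mir362 (5.01), Mir665 (5.02) and Mir124a-2 (5.05), and just below it Mir20b (4.97), Mir449a (4.98) and Mir485 (4.99). Of the single-symbol microRNA probe sets 39.9% lay above 5. The brightest members were Mir692-1 (9.68), Mir680-2 (9.56), Mir505 (9.35), Mir7-1 (9.25) and Mir598 (9.23). Probes differ in how well they bind, so this order is one of signal and not of transcript number.

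Signal followed the base composition of the hairpin. For the 260 microRNA probe sets with a RefSeq hairpin used here, Spearman's rho between the share of G and C and the mean level was 0.75, a description across probe sets that share the same 8 arrays. The median share of G and C was 54.5% in 97 members and 43.9% in 163 probe sets at or below the limit. Among members alone rho was 0.37. The share of G and C had a rho of 0.06 with the difference of Sle1.3 from WT, 0.10 with that of Sle1.3/E2-2het from WT and 0.25 with that of Sle1.3/E2-2het from Sle1.3. The part of base composition in the levels and differences was not tested.

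**Figure D1:**
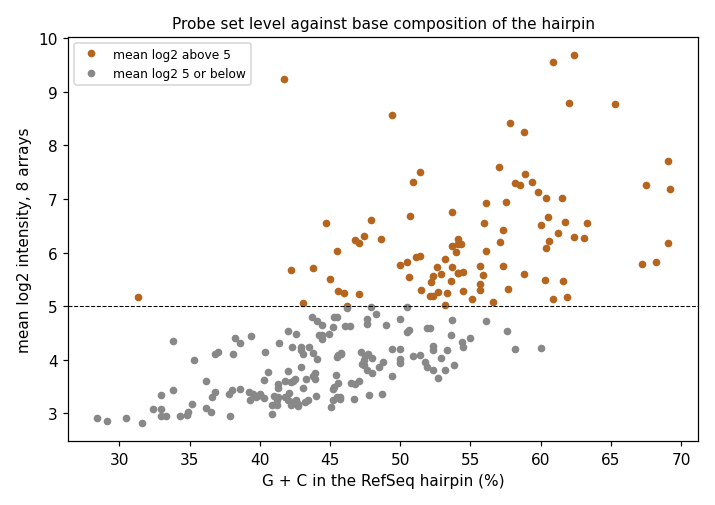
Mean log2 intensity over 8 arrays (vertical axis) against the percentage of G and C in the RefSeq hairpin (horizontal axis) for 260 microRNA probe sets, with members in brown, the others in grey and the limit of 5 dashed. Members have a median of 54.5% G and C, against 43.9% in the others.

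No member passed the threshold for a difference of Sle1.3/E2-2het from Sle1.3 mice. Sex is mixed into this comparison too, since the first array set holds Sle1.3/E2-2het mice with low Xist and Sle1.3 mice with high Xist, and only the second set has 1 mouse of each with high Xist. When Sle1.3/E2-2het mice were set against Sle1.3 mice, 0 of 119 members were called higher and 0 lower at a limma adjusted p under 0.05, beside a background of 0.0979% called higher and 0.355% called lower over 16341 probe sets. At an unadjusted limma p under 0.05, 5 members were higher and 0 lower, beside 1661 of 16341 probe sets in either direction. The differences of the members lay between -0.30 and 0.50, with a median of 0.11 (0.00 over all tested probe sets). They were positive in 96 of 119 members, beside 8302 of all 16341 probe sets. The difference between the genotypes was also compared between array sets. The second set holds only 1 mouse of each genotype, so that comparison cannot show whether the difference was the same in both sets.

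Mir7-1, a source of miR-7a that lies within Hnrnpk, had the smallest p in that comparison. It read 9.17, 9.56 and 9.48 in Sle1.3/E2-2het mice, 8.92, 8.96 and 8.84 in Sle1.3 mice and 9.47 and 9.58 in WT mice. All 3 Sle1.3/E2-2het mice lay above all 3 Sle1.3 mice, and the difference was 0.50 (SE 0.13, limma adjusted p = 0.147). Over the alternatives its adjusted p lay between 0.0696 and 1.0. Hnrnpk, the overlapping gene, differed by -0.11 (SE 0.12). The other members with the smallest p were Mir125a (0.32, SE 0.13), Mir431 (0.31, SE 0.14), Mir680-2 (0.31, SE 0.14) and Mir27a (0.44, SE 0.20), with limma adjusted p between 0.429 and 0.486. Mir125a read 5.64, 5.79 and 5.70 in Sle1.3/E2-2het mice and 5.45, 5.11 and 5.59 in Sle1.3 mice, so the groups did not overlap.

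Some members were called in each comparison of a Sle1.3 genotype with WT. With both directions together, the share called was near that of all tested probe sets. In Sle1.3 against WT, 18 of 119 members (15.1%) were called higher, beside 7.35% of all tested probe sets, and 10 (8.40%) were called lower, beside 15.8%. Before adjustment, at a limma p under 0.05, the counts were 32 and 13, beside 6095 of all 16341 probe sets in either direction. In Sle1.3/E2-2het against WT, 32 members (26.9%) were called higher, beside 10.5% of all, and 9 (7.56%) lower, beside 22.6%. Before adjustment the counts were 45 and 10, beside 7498 of all 16341 probe sets in either direction. With both directions together, the shares of members before adjustment were near those of all probe sets in both comparisons. The median difference was 0.17 over members and -0.06 over all probe sets in Sle1.3, and 0.28 and -0.09 in Sle1.3/E2-2het. These comparisons share the 2 WT mice, so they are not independent of each other.

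The counts rested on few arrays. Without WT replicate 2, 5 members were called higher and 5 lower in each comparison with WT, and without WT replicate 1 the counts were 32 and 9 in Sle1.3 and 49 and 6 in Sle1.3/E2-2het. With no array set term, 7 were higher and 3 lower in Sle1.3, and 11 and 3 in Sle1.3/E2-2het. With labelled sex in its place the counts were 3 and 2, and 5 and 2. Calls over all 16341 tested probe sets fell as well. In Sle1.3 there were 1201 higher and 2574 lower, against 426 and 689 without WT replicate 2 and 115 and 148 with labelled sex. In Sle1.3/E2-2het there were 1712 and 3698, against 575 and 1116 without WT replicate 2 and 297 and 267 with labelled sex. Among members, the first array set alone gave 12 and 10 in Sle1.3 and 34 and 9 in Sle1.3/E2-2het, where both groups were then labelled male. Without Sle1.3 replicate 1, 12 were higher and 5 lower in Sle1.3, and without Sle1.3/E2-2het replicate 1, 18 were higher and 6 lower in Sle1.3/E2-2het (20 and 8 without its replicate 2). Of the members called higher, 4 in Sle1.3 and 7 in Sle1.3/E2-2het had a WT mean at or below 5. These passed the level limit through the groups in which they were high. Of the members called lower, 1 in each comparison had a mean at or below 5 in the Sle1.3 genotype compared. The counts of called members, and the medians over members, are therefore a description. A fit with no limit on level gave the same counts for these 119 members, at 18 and 10 in Sle1.3 and 32 and 9 in Sle1.3/E2-2het. That fit left the choice of members by level as it was, so it does not lift this limit.

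Transcripts that mark other cell types and dividing cells differed as well. Of all tested probe sets 7.35% were higher than WT in Sle1.3 and 10.5% in Sle1.3/E2-2het. Of 17 neutrophil genes 14 were higher in Sle1.3 than in WT and 13 in Sle1.3/E2-2het. The mean of the list was 8.37 to 9.73 in Sle1.3/E2-2het mice, 8.27 to 10.04 in Sle1.3 mice and 6.77 to 7.12 in WT mice. Of 14 erythroid genes 13 were higher in Sle1.3/E2-2het than in WT and 2 in Sle1.3, with list means of 7.36 to 8.08, 6.02 to 7.02 and 5.81 to 6.19 in Sle1.3/E2-2het, Sle1.3 and WT mice. Cell cycle genes were higher in 14 of 19 cases in Sle1.3 and 9 of 19 in Sle1.3/E2-2het. In Sle1.3, 3 of 12 B cell, 5 of 13 T cell and 6 of 11 natural killer genes were lower, and in Sle1.3/E2-2het 6, 4 and 3, with 1 natural killer gene higher. The shares of T cell and natural killer genes that were lower in Sle1.3/E2-2het, and of B cell genes in Sle1.3, lay near the 22.6% and 15.8% of all tested probe sets. The B cell list averaged 10.07 to 10.72 in Sle1.3/E2-2het mice, 10.27 to 10.53 in Sle1.3 mice and 10.49 to 10.68 in WT mice, and the T cell list 8.63 to 9.32, 8.65 to 8.97 and 9.07 to 9.22. Of 11 plasmacytoid dendritic cell genes 4 were lower in each genotype than in WT. Of 8 megakaryocyte genes 4 were higher and 1 lower in Sle1.3, and 1 and 1 in Sle1.3/E2-2het. The part of these shifts in the microRNA values was not tested.

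Mir142, a microRNA gene of the blood lineages on chromosome 11 between Supt4a and Tspoap1, had the largest fall. It read 5.01, 5.40 and 4.82 in Sle1.3/E2-2het mice, 5.02, 5.39 and 4.81 in Sle1.3 mice and 7.33 and 7.64 in WT mice. The WT mice stood apart from all 6 others, on both array sets. The difference from WT was -2.28 in each genotype (SE 0.18, limma adjusted p = 5.52e-05 in Sle1.3/E2-2het and 0.000112 in Sle1.3), or 4.86-fold and 4.87-fold lower. Sle1.3/E2-2het mice differed from Sle1.3 mice by 0.00 (SE 0.15). Mir142 was called in both comparisons under every alternative run.

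Mir18, the only member from the miR-17-92 cluster on chromosome 14, fell nearly as much. It read 4.76, 5.84 and 5.61 in Sle1.3/E2-2het mice, 4.79, 5.29 and 5.03 in Sle1.3 mice and 6.89 and 7.42 in WT mice, with no overlap. The differences from WT were -1.81 in Sle1.3/E2-2het (SE 0.30, limma adjusted p = 0.00232) and -2.17 in Sle1.3 (SE 0.30, limma adjusted p = 0.00122), again under every alternative run. Mir17hg, the host transcript that carries the cluster, read 5.07, 5.58 and 5.30 in Sle1.3/E2-2het mice, 4.95, 5.24 and 5.05 in Sle1.3 mice and 6.03 and 6.43 in WT mice. It was lower by the fit too (-0.90 in Sle1.3/E2-2het and -1.14 in Sle1.3, SE 0.19, limma adjusted p = 0.00657 and 0.00284).

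The other single-symbol probe sets of the cluster lay at or below the level limit and were tested with no limit on level. Mir19a (-0.95 in Sle1.3/E2-2het and -0.97 in Sle1.3) and Mir20a (-0.71 and -0.63) were called lower in both comparisons, with limma adjusted p between 0.0209 and 0.0421. Mir17 differed by -0.41 in each and Mir19b-1 by -0.26 and -0.29, and these were not called. Fitted differences of the cluster thus all had a negative sign, but the probe sets near the floor overlapped between genotypes. The related miR-106b-25 cluster, within Mcm7, had all 3 of its probe sets among the members, with differences between -0.29 and 0.07, and 0 were called in either comparison (0 at an unadjusted p under 0.05 in limma).

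**Figure D2:**
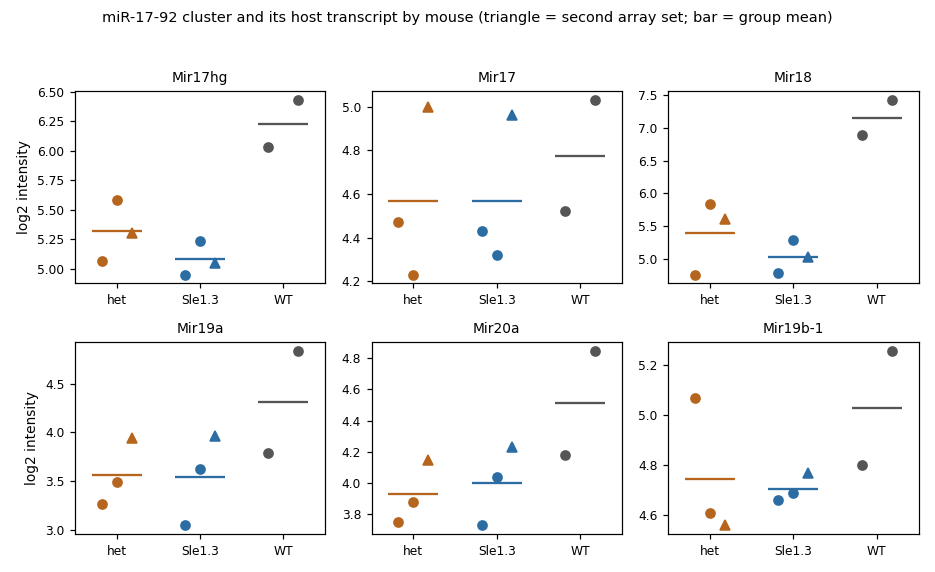
Log2 intensity by mouse for the host transcript Mir17hg and 5 microRNA probe sets of the miR-17-92 cluster in Sle1.3/E2-2het (het), Sle1.3 and WT mice, with bars at group means and triangles for the second array set. Mir17hg and Mir18 separate WT mice from all others, whereas Mir17, Mir19a, Mir20a and Mir19b-1 overlap between genotypes.

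The miR-23a cluster on chromosome 8, between Nanos3 and Zswim4, was lower in Sle1.3 mice with all 3 of its microRNAs. Mir23a read 6.35, 6.38 and 6.48 in Sle1.3/E2-2het mice, 6.06, 6.37 and 6.42 in Sle1.3 mice and 7.09 and 7.27 in WT mice. Mir24-2 read 6.18, 6.49 and 7.08 in Sle1.3/E2-2het mice, 5.92, 6.06 and 6.93 in Sle1.3 mice and 7.01 and 6.92 in WT mice. Mir27a read 6.52, 7.20 and 7.89 in Sle1.3/E2-2het mice, 6.40, 6.86 and 7.02 in Sle1.3 mice and 7.53 and 7.57 in WT mice. Mir23a separated WT from every other mouse, whereas the second-set arrays of Mir24-2 lay at the WT level.

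In Sle1.3 the differences from WT were -0.95 for Mir23a, -0.94 for Mir24-2 and -1.03 for Mir27a (limma adjusted p = 0.00204, 0.00221 and 0.0109). In Sle1.3/E2-2het they were -0.83 for Mir23a and -0.67 for Mir24-2 (limma adjusted p = 0.00323 and 0.00817), and Mir27a, at -0.59, was not called (limma adjusted p = 0.0747). Mir27a in Sle1.3 lost its call without WT replicate 2 (limma adjusted p = 0.0909) and without Sle1.3 replicate 1 (0.0532). With no array set term the calls of Mir24-2 and Mir27a in Sle1.3 were lost (0.245 and 0.187), as was that of Mir24-2 in Sle1.3/E2-2het (0.425). Mir23a was called under each alternative except labelled sex in place of the array set (0.103 in Sle1.3 and 0.072 in Sle1.3/E2-2het).

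Of the 20 probe sets of lymphoid-expressed microRNAs on the array, 9 were members, and 3 of them were lower in each comparison with WT: Mir142, Mir155 and Mir30e. Over all tested probe sets 15.8% were lower in Sle1.3 and 22.6% in Sle1.3/E2-2het. Mir155, induced in activated B cells, T cells and macrophages, read 4.75, 4.82 and 5.45 in Sle1.3/E2-2het mice, 4.76, 4.51 and 5.45 in Sle1.3 mice and 5.56 and 5.15 in WT mice. Its second-set arrays overlapped the WT values, and the differences were -0.59 in Sle1.3/E2-2het and -0.70 in Sle1.3 (SE 0.16, limma adjusted p = 0.0178 and 0.0117). The Sle1.3 mean of Mir155 lay below the limit of 5, so it passed the limit through the higher values of other mice. Without WT replicate 1 the adjusted p was 0.0961 and 0.0665, with no array set term 0.445 and 0.393, and without Sle1.3/E2-2het replicate 1 it was 0.0501 in Sle1.3/E2-2het. Mir30e, within Nfyc, read 5.92, 5.27 and 5.99 in Sle1.3/E2-2het mice, 5.74, 5.83 and 5.60 in Sle1.3 mice and 6.53 and 6.48 in WT mice, with no overlap. The differences were -0.81 in each (SE 0.21, limma adjusted p = 0.0139 and 0.0175), and leaving out either WT mouse ended both calls (limma adjusted p 0.0563 to 0.0996), as leaving out Sle1.3 replicate 1 did in Sle1.3 (0.052).

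Other lymphoid microRNAs were not called. Mir150, a microRNA of mature lymphocytes, read 6.87 to 7.17 in Sle1.3/E2-2het mice, 6.99 to 7.33 in Sle1.3 mice and 6.45 to 6.84 in WT mice. Its differences from WT were 0.28 (SE 0.15) and 0.39 (SE 0.15), with limma adjusted p = 0.172 in Sle1.3/E2-2het and 0.0889 in Sle1.3. Mir342, Mir326, Mir30a, Mir30d and Mir181b-1 were not called either.

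The remaining lower members were Mir128-1, Mir138-2, Mir7-1 and Mir568. Mir128-1, in R3hdm1 on chromosome 1, differed from WT by -0.63 in Sle1.3/E2-2het and -0.66 in Sle1.3 (SE 0.18, limma adjusted p = 0.0215 and 0.0231). Without WT replicate 2 both calls were lost (0.177 and 0.183), as were that in Sle1.3/E2-2het without its replicate 1 (0.0951) and that in Sle1.3 without its replicate 1 (0.117). R3hdm1 itself differed by -0.64 (limma adjusted p = 0.0102) and -0.44 (limma adjusted p = 0.0584). Mir138-2 differed by -0.43 and -0.54, and its call in Sle1.3/E2-2het was lost on leaving out any of 7 arrays, all but Sle1.3/E2-2het replicate 1 (limma adjusted p 0.051 to 0.147). In Sle1.3 it was lost without WT replicate 2, Sle1.3 replicate 1 or Sle1.3 replicate 2 (0.0579 to 0.0955). Mir568 was lower in Sle1.3/E2-2het (-0.68, SE 0.19, limma adjusted p = 0.0200), as was Tigit, the T cell and natural killer cell receptor gene that it overlaps (-1.23, SE 0.16). The call of Mir568 was lost without WT replicate 2 (0.153) and without Sle1.3/E2-2het replicate 1 (0.0806). Its Sle1.3/E2-2het mean lay below the level limit of 5.

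Mir680-1 and Mir680-2 had the largest rises. Mir680-1, on chromosome 6 between the natural killer receptor genes Klrc1 and Klri1, read 8.84, 8.85 and 9.35 in Sle1.3/E2-2het mice, 8.74, 8.66 and 9.25 in Sle1.3 mice and 7.12 and 6.58 in WT mice. Mir680-2, on chromosome X, read 10.08, 9.98 and 10.54 in Sle1.3/E2-2het mice, 9.71, 9.67 and 10.29 in Sle1.3 mice and 8.35 and 7.88 in WT mice. Neither overlapped WT, and both passed the threshold in both comparisons under every alternative run. Mir680-1 rose by 1.99 in Sle1.3/E2-2het and 1.86 in Sle1.3 (SE 0.17, limma adjusted p = 8.42e-05 and 0.000307). Mir680-2 rose by 1.90 and 1.59 (SE 0.16, limma adjusted p = 8.42e-05 and 0.000313).

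Mir680-3, on chromosome 12, rose less, by 0.74 in Sle1.3/E2-2het and 0.57 in Sle1.3 (SE 0.18, limma adjusted p = 0.0122 and 0.0448). The hairpins of Mir680-1 and Mir680-2 share an unbroken run of 39 bases, and that of Mir680-3 shares 24 with Mir680-1 and 22 with Mir680-2. Whether their probes bind more than 1 of these transcripts was not tested, so the 3 values are not taken as separate. Klrc1, the neighbour of Mir680-1, moved the other way, by -0.71 in Sle1.3/E2-2het and -1.73 in Sle1.3 (limma adjusted p = 0.0488 and 0.00157).

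**Figure D3:**
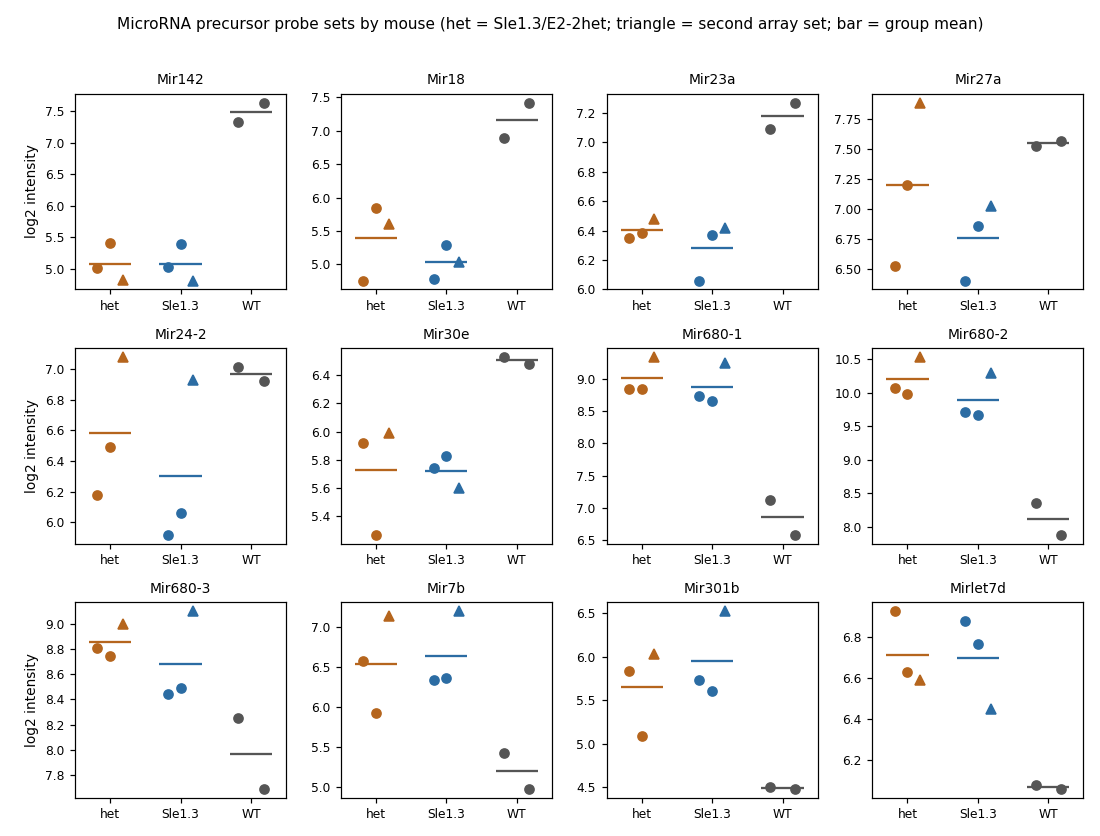
Log2 intensity by mouse for 12 microRNA probe sets in Sle1.3/E2-2het (het), Sle1.3 and WT mice, with bars at group means and triangles for the second array set; vertical scales differ between panels. WT mice lie above all others for Mir142, Mir18, Mir23a and Mir30e and below all others in the last 6 panels.

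Mir713, on chromosome 13, rose in all 3 of its probe sets, by 1.24, 1.18 and 0.58 in Sle1.3/E2-2het and by 1.06, 1.16 and 0.50 in Sle1.3. The probe sets carry 1 symbol and may bind the same transcript, so they are not 3 separate findings. The probe set that rose by 1.18 and 1.16 had a WT mean below the limit of 5 and became a member through the Sle1.3 genotypes. Mir301b, within 2610318N02Rik on chromosome 16, read 5.84, 5.09 and 6.03 in Sle1.3/E2-2het mice, 5.73, 5.61 and 6.53 in Sle1.3 mice and 4.50 and 4.48 in WT mice. The WT values lay below the limit of 5, so Mir301b became a member through the Sle1.3 genotypes. The differences were 0.93 and 1.23, and with no limit on level the limma adjusted p was 0.00883 and 0.00371. In Sle1.3/E2-2het, within the limit, its adjusted p was 0.0649 without WT replicate 2.

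Not every group of genes with a shared seed moved as a unit. Mir7b, on chromosome 17, read 6.57, 5.92 and 7.13 in Sle1.3/E2-2het mice, 6.33, 6.36 and 7.20 in Sle1.3 mice and 5.42 and 4.97 in WT mice, and it rose by 1.06 and 1.15 (SE 0.20, limma adjusted p = 0.00457 and 0.00369). Mir7-1, which makes miR-7a with the same GGAAGAC seed, was lower in Sle1.3 (-0.62, SE 0.16, limma adjusted p = 0.0164) and differed by -0.13 in Sle1.3/E2-2het (limma adjusted p = 0.548). Mir7-2, the other miR-7a gene, differed by 0.40 and 0.23 and was not called. Without WT replicate 2, Mir7b had an adjusted p of 0.0593 in Sle1.3/E2-2het and 0.0540 in Sle1.3, and Mir7-1 had 0.108 in Sle1.3. Mir7-1 in Sle1.3 also lost its call without Sle1.3 replicate 1 (0.0604).

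The let-7 family, which restrains proliferation and growth genes, had 3 of its 10 probe sets among the members. Mirlet7d read 6.93, 6.63 and 6.59 in Sle1.3/E2-2het mice, 6.88, 6.77 and 6.45 in Sle1.3 mice and 6.08 and 6.06 in WT mice. It rose by 0.74 and 0.72 (SE 0.15, limma adjusted p = 0.00501 and 0.00663), and in Sle1.3 its adjusted p was 0.0515 without WT replicate 2. Mirlet7e and Mirlet7i passed the threshold in Sle1.3/E2-2het (0.53 for each, limma adjusted p = 0.0424 and 0.0281). Their differences in Sle1.3 were 0.29 and 0.39 and were not called, and Sle1.3/E2-2het differed from Sle1.3 by 0.25 (SE 0.15) for Mirlet7e and 0.14 (SE 0.14) for Mirlet7i.

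Mir181c, from a family known in lymphocyte development, rose by 0.91 in Sle1.3/E2-2het and 0.71 in Sle1.3 (SE 0.18, limma adjusted p = 0.00478 and 0.0164). Its cluster partner Mir181d, with the same ACAUUCA seed, differed by 0.37 and 0.22, and Mir181b-1, on another chromosome, by -0.16 and -0.38, and neither was called. Without WT replicate 2 the adjusted p of Mir181c was 0.0559 and 0.141. Mir195a and Mir497, neighbours on chromosome 11 that share the AGCAGCA seed, differed by 0.63 (limma adjusted p = 0.0463) and -0.42 (limma adjusted p = 0.0662) in Sle1.3.

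Further rises among the named members were Mir330, by 0.82 in Sle1.3/E2-2het and 0.79 in Sle1.3, and Mir365-1, by 0.82 and 0.66. The WT mean of Mir365-1 lay below the limit of 5, so it became a member through the Sle1.3 genotypes. Without WT replicate 2, Mir330 lost its call in both (limma adjusted p = 0.0841 and 0.113), and Mir365-1 in Sle1.3/E2-2het (0.052). Mir330 in Sle1.3 also lost it without Sle1.3 replicate 1 (0.0519). Mir297b, within Sfmbt2, read 5.78, 4.90 and 7.85 in Sle1.3/E2-2het mice, 4.94, 5.34 and 8.05 in Sle1.3 mice and 4.57 and 4.12 in WT mice. Its second-set arrays stood 2.71 above the first, the widest set difference of any member. Its WT values also lay below 5. Its differences from WT were 0.93 and 0.87, with limma adjusted p = 0.0228 and 0.0389 with no limit on level, and within the limit the first set alone ended the call in Sle1.3 (limma adjusted p = 0.0761). Both calls were lost without WT replicate 2 (0.193 and 0.27), that in Sle1.3/E2-2het without its replicate 1 (0.0716) and that in Sle1.3 without its replicate 2 (0.0734). Sfmbt2 differed by 0.03 and 0.01.

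**Figure D4:**
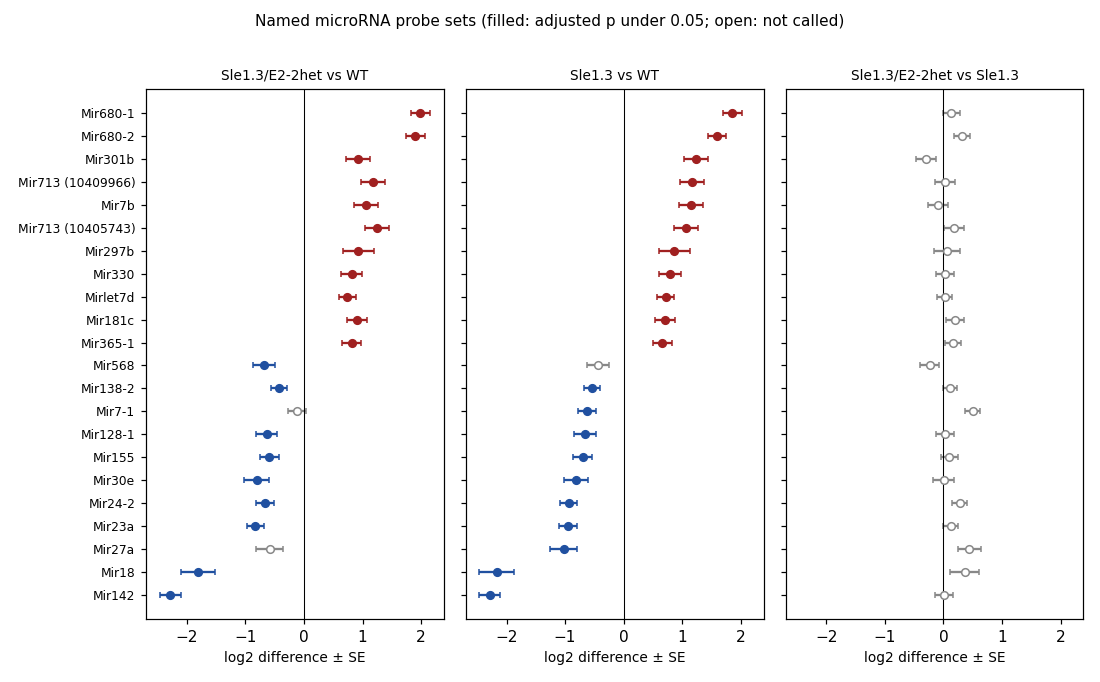
Log2 difference with standard error from the limma fit for the 22 microRNA probe sets named in a comparison with WT, shown for Sle1.3/E2-2het vs WT, Sle1.3 vs WT and Sle1.3/E2-2het vs Sle1.3, ordered by the middle panel. Filled points passed an adjusted p of 0.05, and the third panel holds none.

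The imprinted region between Dlk1 and Dio3 on chromosome 12, which carries a large group of microRNA genes, held 13 members by position, with medians of 0.29 in Sle1.3/E2-2het and 0.15 in Sle1.3 against WT. Of these, 0 were called in either comparison, and 3 and 1 were above WT at an unadjusted limma p under 0.05. Of the 3 probe sets on the list of red cell microRNAs, Mir210, which is also induced by low oxygen, was the only member. It read 7.72, 7.77 and 8.02 in Sle1.3/E2-2het mice, 7.44, 7.52 and 8.05 in Sle1.3 mice and 7.63 and 7.51 in WT mice, and its differences from WT were 0.12 and -0.04, neither called. Mir144 lay far below the limit and read 2.64, 2.90 and 3.70 in Sle1.3/E2-2het mice, 2.64, 2.73 and 3.63 in Sle1.3 mice and 2.61 and 2.71 in WT mice, beside the higher erythroid genes given above. Its differences from WT were 0.11 and 0.03, and Mir451a, from the same locus, rose by 0.48 in Sle1.3/E2-2het (limma adjusted p = 0.0288 with no limit on level) and differed by 0.38 in Sle1.3 (limma adjusted p = 0.0784) at a mean level of 4.15.

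Genes that overlap a microRNA were compared with it. In the RefSeq annotation, 76 of 119 members overlapped another annotated gene, on either strand, and 45 of them overlapped one that was tested. In Sle1.3, 10 called members had such a gene and 0 of these genes were called (2 in the same direction at an unadjusted p under 0.05 in limma). In Sle1.3/E2-2het, 17 called members had one, of which 4 were called in the same direction: R3hdm1, Tigit, Nup93 with Mir138-2 (-0.51) and Ank1, a red cell membrane gene, with Mir3107 (0.82). Pde2a was called in the opposite direction, at -0.98 beside 0.62 for Mir139. Of all tested probe sets 10.5% were higher and 22.6% lower in that comparison, so the number of overlapping genes called was near the background.

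Part of the genes that make and use microRNAs were lower in both Sle1.3 genotypes. Of 28 tested genes of microRNA processing and silencing, 13 were lower and 0 higher in Sle1.3 (0 higher at an unadjusted p under 0.05 in limma), with a median of -0.40. In Sle1.3/E2-2het 16 were lower and 1 higher, with a median of -0.48. The background of lower calls was 15.8% in Sle1.3 and 22.6% in Sle1.3/E2-2het. When Sle1.3/E2-2het mice were set against Sle1.3 mice, 0 were called (limma, with 1 above and 1 below at p under 0.05 before adjustment). The mean of the 28 genes was 7.66 to 8.08 in Sle1.3/E2-2het mice, 7.83 to 8.04 in Sle1.3 mice and 8.13 to 8.22 in WT mice.

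Ago2, the Argonaute that can cut target RNA, fell by 0.96 in Sle1.3/E2-2het and by 0.93 in Sle1.3 (SE 0.17, limma adjusted p = 0.00355 and 0.00485). Its brighter probe set read 8.92, 8.53 and 8.84 in Sle1.3/E2-2het mice, 8.86, 8.98 and 8.53 in Sle1.3 mice and 9.83 and 9.70 in WT mice, with no overlap. Ago1 fell by 0.95 and 0.76. Dicer1 fell by 0.71 and 0.63 (SE 0.14, limma adjusted p = 0.00504 and 0.00995).

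Dgcr8, the RNA-binding partner of Drosha, read 7.06, 7.01 and 6.94 in Sle1.3/E2-2het mice, 7.03, 6.91 and 7.30 in Sle1.3 mice and 7.70 and 7.70 in WT mice. It fell by 0.74 and 0.65 (SE 0.15, limma adjusted p = 0.0053 and 0.0103). Drosha differed by -0.24 and -0.06 and was not called (limma adjusted p = 0.242 and 0.821). Lin28a, which blocks let-7 maturation, was the gene that rose in Sle1.3/E2-2het (0.64, SE 0.19, limma adjusted p = 0.0260). That call was lost without WT replicate 2, without Sle1.3/E2-2het replicate 1 or 2, with no array set term, with labelled sex, over every probe set above the limit and after quantile normalization. The count of lower genes was 3 in Sle1.3 and 7 in Sle1.3/E2-2het without WT replicate 2, 5 in Sle1.3 without Sle1.3 replicate 1 and 8 without its replicate 2, 7 in Sle1.3 in the first array set alone, and 1 in each with labelled sex in place of the array set.

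**Figure D5:**
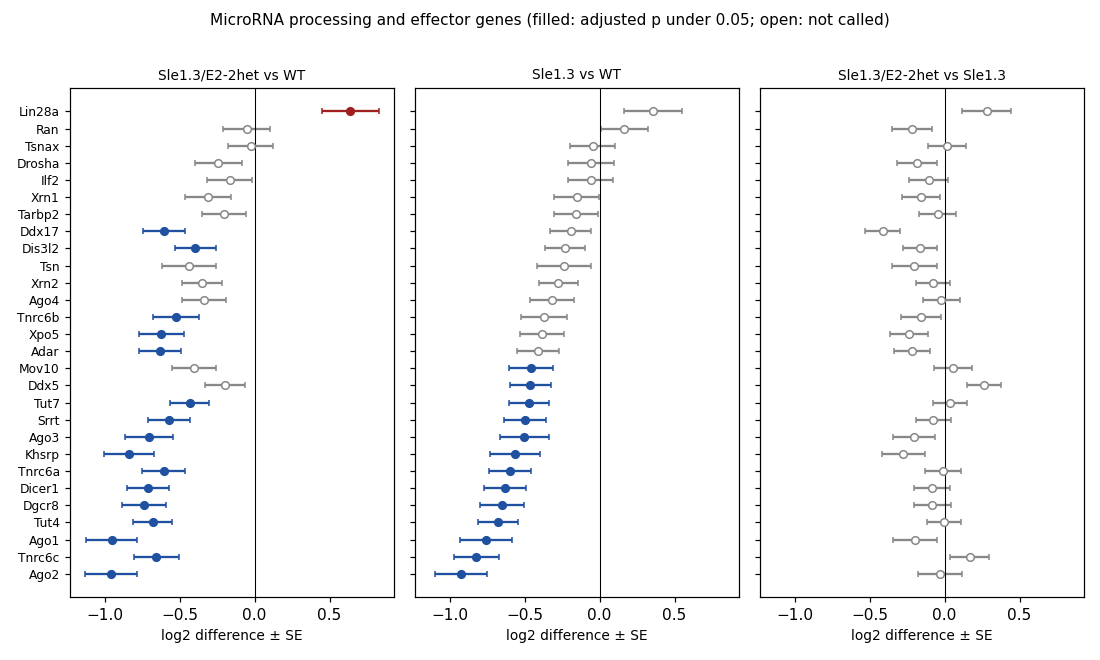
Log2 difference with standard error from the limma fit for 28 genes of microRNA processing and silencing in Sle1.3/E2-2het vs WT, Sle1.3 vs WT and Sle1.3/E2-2het vs Sle1.3, ordered by the middle panel. Filled points passed an adjusted p of 0.05: 16 lower and 1 higher in the first panel, 13 lower in the second and none in the third.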

How the data were processed

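Splenocyte RNA of 8 mice was read on 1 array each. The authors deposited 1 linear intensity per probe set and array. RMA and the Affymetrix Expression Console are named, without versions, per the submitters' processing notes, and a genome build is not given in the sources used here. Here log2 was taken, and the deposited intensity values were not renormalized. The 21789 single-symbol probe sets were used, and the 16341 with a mean log2 above 5 entered 1 linear model in limma 3.58.1 under R 4.3.3 (lmFit, eBayes, two-sided, Benjamini-Hochberg adjustment over all 16341, threshold 0.05) for group plus array set. The second array set is the arrays whose lowest linear intensity is above 8, a property of the values and not a label. The fit was tested on simulated data. Members, lists and tests were chosen with earlier results of these data known. Named members are those past the threshold, up to 10 per direction by size, or the 5 smallest p. Others come from fixed lists, and members between Dlk1 and Dio3 were taken by position after their values were seen.

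Sle1.3/E2-2het arrays and the Sle1.3 arrays of the same number deviated together from their group means (correlations across probe sets 0.57, 0.37 and 0.59). The main fit had no term for these pairs beyond the array set. They entered only through the replicate block, which was run as an alternative. WT arrays shared only a number (-0.05 to 0.22). The labels state separate mice and nothing on litters or days. Alternatives covered the array set term, labelled sex, the replicate block, the first set alone, the level limit, the choice of probe sets, normalization and each array left out. The number of arrays limits the precision. Sequences, chromosomes and neighbouring genes are from RefSeq (GRCm38.p6), and 106 members matched a mature sequence.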

Additional observations from a re-analysis of the deposited data

How the results depend on the processing

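No member was called in Sle1.3/E2-2het against Sle1.3 under any alternative run, and no named difference changed sign. With the replicate block in place of the array set, 23 members were higher and 11 lower in Sle1.3 against WT, and 38 and 10 in Sle1.3/E2-2het against WT, and no named call was lost. Among the 20 named differences of Sle1.3, 10 lost their call with no array set term, 15 with labelled sex and 10 without WT replicate 2. Among the 19 of Sle1.3/E2-2het the numbers were 7, 12 and 10. Mir142, Mir18, Mir680-1 and Mir680-2 kept theirs under every alternative. Calls over all tested probe sets also fell in these 3 settings. The cause of these losses was not tested.

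Members called higher in Sle1.3 numbered 18, against 7 with no array set term and 3 with labelled sex, and 5 to 32 with 1 array left out. Members called lower numbered 10, against 3 and 2, and 5 to 10. In Sle1.3/E2-2het, 32 were higher, against 11 and 5, and 5 to 49 with 1 array left out (18 without Sle1.3/E2-2het replicate 1, 20 without its replicate 2), and 9 were lower, against 3 and 2, and 5 to 9. Without Sle1.3 replicate 1, 5 members were lower in Sle1.3. Processing genes called lower in Sle1.3 numbered 13, against 2 with no array set term, 1 with labelled sex, 7 in the first set alone and 5 after quantile normalization, and 3 to 12 with 1 array left out. In Sle1.3/E2-2het they numbered 16, against 3, 1 and 8 after quantile normalization, and 7 to 17 with 1 array left out. The 1 processing gene called higher there was 0 with no array set term, with labelled sex, over every probe set above the limit and after quantile normalization, and 0 to 1 with 1 array left out.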

Other observations

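Probe sets that name a microRNA together with another gene were not members, and a few of them differed from WT. Their values come from a separate fit, with adjustment over all 25562 probe sets that had a mean log2 above 5. The probe set of Mir22 and its host Mir22hg was lower by a difference of -1.62 in Sle1.3/E2-2het and -1.98 in Sle1.3 (limma adjusted p = 0.00124 and 0.000693). The one that joins Mir92-1 of the miR-17-92 cluster with Mir17hg differed by -1.04 and -1.21 (limma adjusted p = 0.0236 and 0.0168).

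Among the 179 single-symbol microRNA probe sets at or below the level limit, tested with no limit on level, 15 were higher and 10 lower in Sle1.3/E2-2het against WT, and 9 and 10 in Sle1.3 against WT. Over all 21789 probe sets of that fit, 3080 were higher and 3879 lower in Sle1.3/E2-2het, and 2015 and 2708 in Sle1.3. The shares called among the 179 lay below these shares over all. Mir301 rose by 1.05 and 0.80 (limma adjusted p = 0.00106 and 0.00384), and Mir98, a let-7 family gene on chromosome X, differed by -0.81 and -1.01 (limma adjusted p = 0.00854 and 0.00460), against the direction of Mirlet7d. Mir186 differed by -0.80 and -0.79 and Mir103-2 by -0.81 and -0.68, all called lower. These values lie near the floor, where a fold on the log2 scale can understate a change.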
